A study of Mus musculus with 38 samples.

Results

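The type 2 transcription regulators described here are 10 mouse genes that control transcription of the interleukin genes Il4, Il5 and Il13. They were chosen by gene symbol: Gata3, Maf, Nfil3, Stat6, Stat5a, Stat5b, Irf4, Ikzf1, Nfatc1 and Nfatc2. All 10 were found, each with 1 probe set, among the 23410 probe sets with a gene name on the array, and none was lost to a filter on low values. The study profiled 5 mouse CD8 T cell clones, dormant or activated, with 38 Affymetrix arrays.

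Type 2 cytokines are made by T cells that express GATA3, the zinc finger factor that opens the locus shared by Il4, Il5 and Il13. Interleukin 4 acts through its receptor and STAT6 to raise GATA3, and interleukin 2 acts through STAT5A and STAT5B on the same locus. Engagement of the T cell receptor sends NFAT proteins into the nucleus through calcineurin and induces IRF4, which binds DNA together with other factors at these genes. CD8 T cells more commonly make interferon gamma, and CD8 clones that secrete interleukin 13 are a minority type.

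Clones sAg1 and sAg3 carry the phenotype label CD8IL13+ and are the CD8γ13 clones of the series design. Clones 8uvmo-2 and 8uvmo-3 are labelled CD8IL13- and correspond to the Tc1 clones of that design. CD8bm1 is labelled as an allo CD8 clone. The clones are called IL13+, IL13-negative and alloreactive below. Activated cells had been kept for 14 h on plates coated with the anti-CD3 antibody 145-2c11, adsorbed at 0.5 ug/ml, and dormant cells had not. Strain, age of the donor mice and passage are not given in the labels. There were 4 arrays per clone and state, except 3 for dormant sAg1 and 3 for dormant sAg3. Each line is 1 clone, so a phenotype rests on 2 clones. Separate cultures are not named in the labels for the arrays of a group, so the spread behind the p-values may be technical.

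Levels are log2 values as deposited, and a difference of 1 log2 unit is 2-fold. Arrays within a group correlated at 0.9858 to 0.9981. Array medians were higher after activation, at 6.68 to 6.80 against 6.21 to 6.41 in dormant arrays, and the rise was found at low levels. Probe sets with a mean under 7 rose by a median of 0.51 and those above 9 had a median difference of -0.04. A gene was therefore said to rise, fall or differ only where limma gave an adjusted p under 0.05, with the same sign, on 3 scalings: as deposited, centred on array medians and quantile normalized. Of 9 measured T cell markers, 8 or 9 exceeded a mean of 7 in every group, with Cd3e at 12.49 to 13.44 and Cd8a at 11.22 to 12.82. The exception was the adhesion receptor gene Cd2, at 5.80 (dormant) and 6.65 (activated) in sAg3 and at 5.59 and 6.46 in CD8bm1, against 8.33 to 10.29 in the other clones. None of 6 measured B cell markers exceeded a group mean of 7. Dormant 8uvmo-2 fell into arrays 1 and 3 (r = 0.9974) and arrays 2 and 4 (r = 0.9973), with 0.9858 to 0.9894 across them.

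The upstream sequences of Il5 and Il13 are shown because, among 11 measured type 2 cytokine targets, these 2 differed most between activated IL13+ and IL13-negative clones (Il5 by 4.91 and Il13 by 3.98), and because words bound by the GATA and NFAT families lie in them. Each line gives the 250 bases before the RefSeq start site (build GRCm38.p6), 5′ to 3′ on the gene's strand. Capitals mark the NFAT core word GGAAA and the GATA words AGATAA or AGATAG and TGATAA or TGATAG, searched on both strands.
Il5 (chr11:53720544-53720793, plus strand): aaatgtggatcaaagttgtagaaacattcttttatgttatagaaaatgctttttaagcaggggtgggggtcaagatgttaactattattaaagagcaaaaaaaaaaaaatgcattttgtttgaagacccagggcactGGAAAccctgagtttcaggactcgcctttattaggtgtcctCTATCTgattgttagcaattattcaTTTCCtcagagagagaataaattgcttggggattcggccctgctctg
Il13 (chr11:53634703-53634952, minus strand): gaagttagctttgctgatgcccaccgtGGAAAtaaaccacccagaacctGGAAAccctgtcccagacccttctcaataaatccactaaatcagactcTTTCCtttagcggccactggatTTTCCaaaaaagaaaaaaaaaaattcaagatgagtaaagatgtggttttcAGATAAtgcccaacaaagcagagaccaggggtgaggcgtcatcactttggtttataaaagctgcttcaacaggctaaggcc
The Il5 window held 2 NFAT core words, at positions -113 and -47 from the start site, and 1 GATA word at -72. The Il13 window held 4 NFAT core words, at -223, -201, -153 and -131, and 1 GATA word at -81. These words are common: of 32851 RefSeq windows of the same length, 55.6% held the NFAT core and 26.5% a GATA word. Windows of 8 of the 10 regulators were searched. Those of Maf and Nfatc1 were not searched, so nothing is said here about words upstream of these genes. Among the 8 regulators searched, the NFAT core was in at least 1 window of 5 (Gata3, Nfatc2, Stat5a, Stat5b and Stat6). Stat5a, Stat5b, Ikzf1 and Nfatc2 had 2 windows each, and for Stat5a and Stat5b only 1 of the 2 held the core. That count is per gene, whereas the shares of all windows are per window. None held a GATA word, the AP-1 words TGACTCA or TGAGTCA, the STAT5 word TTCNNNGAA, the STAT6 word with a 1 base longer gap, the NFIL3 words TTACGTAA or TTATGTAA, or the Ikaros core TGGGAA. Across all windows these were present in 4.46% (AP-1), 7.02% (STAT5), 5.85% (STAT6), 0.931% (NFIL3) and 21.6% (Ikaros core). A match describes letters in this window, not a bound site.

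The cytokine targets separated the clones as follows. RNA was taken from whole cultures, so fewer expressing cells and less RNA per cell cannot be told apart. Il5, which supports eosinophils, was at 10.85, 10.77 and 11.03 on the dormant sAg3 arrays and at 13.05, 13.18, 13.32 and 13.21 on the activated ones. In sAg1 it was at 4.44, 4.65 and 4.59 when dormant and at 8.16, 8.32, 6.93 and 6.70 when activated. No array of the other 3 clones exceeded a level of 5.73 for Il5. Il13, which drives mucus production and allergic inflammation, was at 10.28, 10.34 and 10.25 in dormant sAg3, and at 12.72, 12.87, 12.72 and 12.79 after activation. In sAg1 Il13 was at 6.46, 6.20 and 6.06 when dormant and at 10.32, 10.08, 9.12 and 8.52 when activated. Dormant sAg1 thus lay near the IL13-negative clones for both cytokines, and sAg3 was high in both states. Il13 also rose in 8uvmo-2, a clone labelled IL13-negative, from 6.09 to 6.35 on dormant arrays to 7.62 to 7.92 on activated ones. Il4 was at 5.29 to 5.89 on all dormant arrays and 6.32 to 6.64 on all activated ones, close to the median of all values (6.57), and its difference between the IL13+ and IL13-negative clones did not pass in either state (adjusted p = 0.111 dormant and 0.956 activated).

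**Figure D1:**
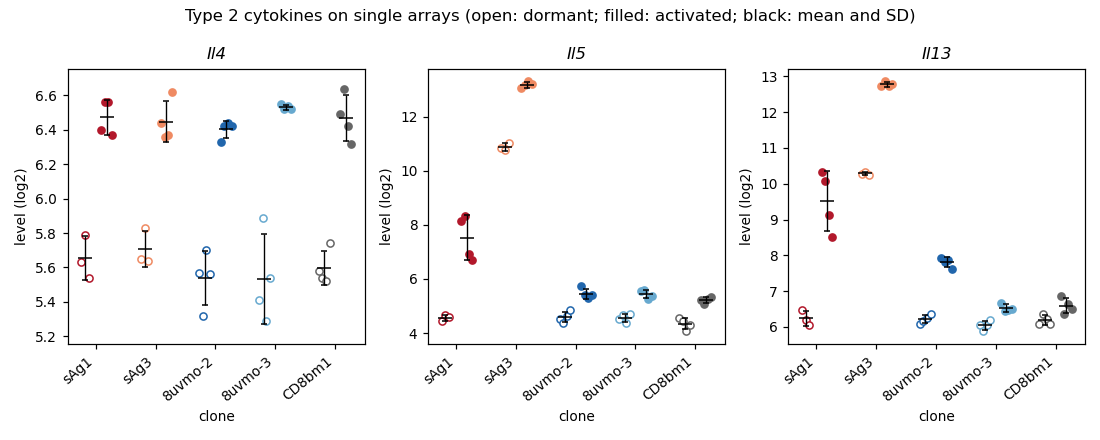
Level of Il4, Il5 and Il13 (log2, vertical axis) on every array of the 5 clones (horizontal axis); open points are dormant, filled points activated arrays, and black marks are group means with SD. Il5 and Il13 were high in sAg3 in both states and in sAg1 after activation, while Il4 stayed between 5.29 and 6.64 on every array.

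Activation changed IRF4, STAT5A, NFATC1 and MAF transcripts upwards and GATA3, NFIL3, STAT6 and Ikaros transcripts downwards, as means over the 5 clones. The sizes depended on the scaling: after centring, Maf (0.26) and Nfatc1 (0.25) rose by less than Gata3 (-0.59), Nfil3 (-0.66), Stat6 (-0.58) and Ikzf1 (-0.61) fell. On all 3 scalings 8 of the 10 regulators passed, 4 higher (Irf4, Stat5a, Maf, Nfatc1) and 4 lower (Nfil3, Ikzf1, Gata3, Stat6). The background was high: 55.5% of all named probe sets passed that rule, 34.2% higher and 21.3% lower, and 90.3% passed on the deposited values alone. The median difference of the regulators was -0.05 against 0.35 over all named probe sets, and the median size was 0.22 against 0.45. Only Irf4 also reached 2-fold, which 6.63% of all probe sets did. Stat5b (difference -0.02 ± 0.032, SE; adjusted p = 0.592) and Nfatc2 (-0.08 ± 0.0529; adjusted p = 0.168) did not pass on deposited values, and both were lower after centring (-0.43 with adjusted p = 6.69e-14 and -0.49 with adjusted p = 4.03e-10, limma). In single clones, 4 regulators passed in sAg1 where 50.2% of all probe sets did, 6 in sAg3 (29.4%) and 4 in CD8bm1 (37.7%). In the IL13-negative clones the numbers were 8 for 8uvmo-2 (46.0%) and 5 for 8uvmo-3 (42.3%).

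**Figure D2:**
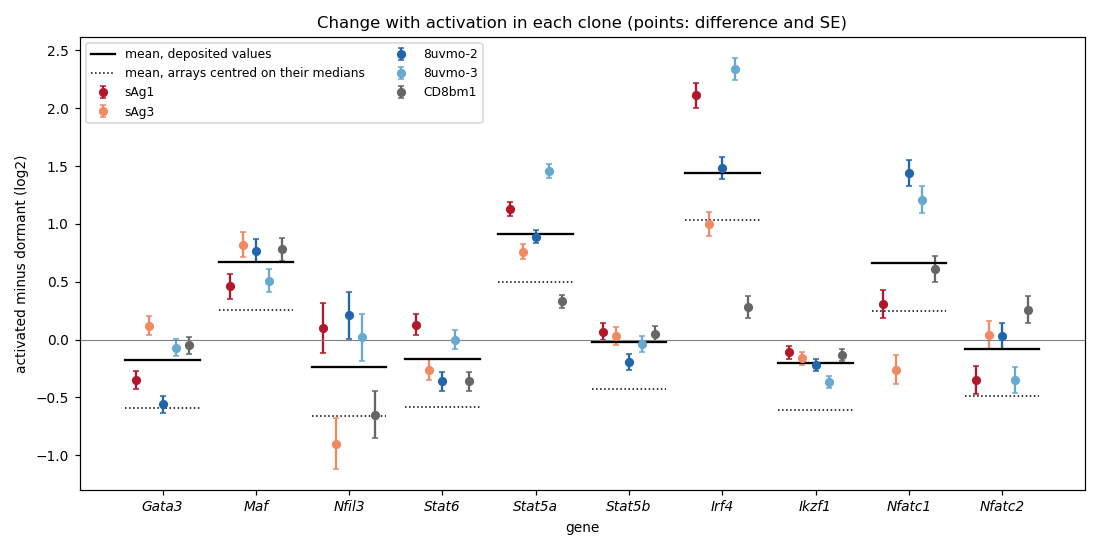
Activated minus dormant level (log2, vertical axis) of each regulator (horizontal axis) in each clone, as point and SE; solid lines are means of the 5 clones on deposited values, dotted lines on arrays centred on their medians. Irf4 ranged from 0.28 in CD8bm1 to 2.34 in 8uvmo-3, and Nfatc1 from -0.26 in sAg3 to 1.44 in 8uvmo-2.

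Between the phenotypes, 8 of 10 regulators passed in the dormant state under the 3 scalings, where 30.6% of all probe sets did, 13.5% higher and 17.1% lower. Gata3, Nfil3, Maf and Nfatc2 were higher in the IL13+ clones and Stat5a, Stat5b, Stat6 and Ikzf1 lower. In the activated state 8 of 10 passed against 29.0% of all probe sets (14.2% higher, 14.8% lower), with Gata3, Nfil3, Maf and Nfatc2 higher and Nfatc1, Stat5a, Irf4 and Stat5b lower. The median size of the difference was 0.36 for the regulators and 0.11 for all probe sets when dormant, and 0.48 against 0.09 when activated. Of the 23410 named probe sets, 12057 had a mean below 7. Shares and medians over all probe sets were not matched for level, here or in the other comparisons. Differences of at least 2-fold were found for Nfil3 when dormant, where 4.60% of probe sets passed, and for Gata3 and Nfatc1 when activated, where 2.64% did. When the clone was taken as a random block, 2 of 10 passed when dormant (Gata3, Nfil3) and 3 when activated (Gata3, Stat5a, Nfatc1). The block used 1 correlation (0.378) for all probe sets, not the spread of each gene between clones. Activated Stat5a passed with it although its difference was -0.04 without sAg3. For these counts no share of all probe sets is given.

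**Figure D3:**
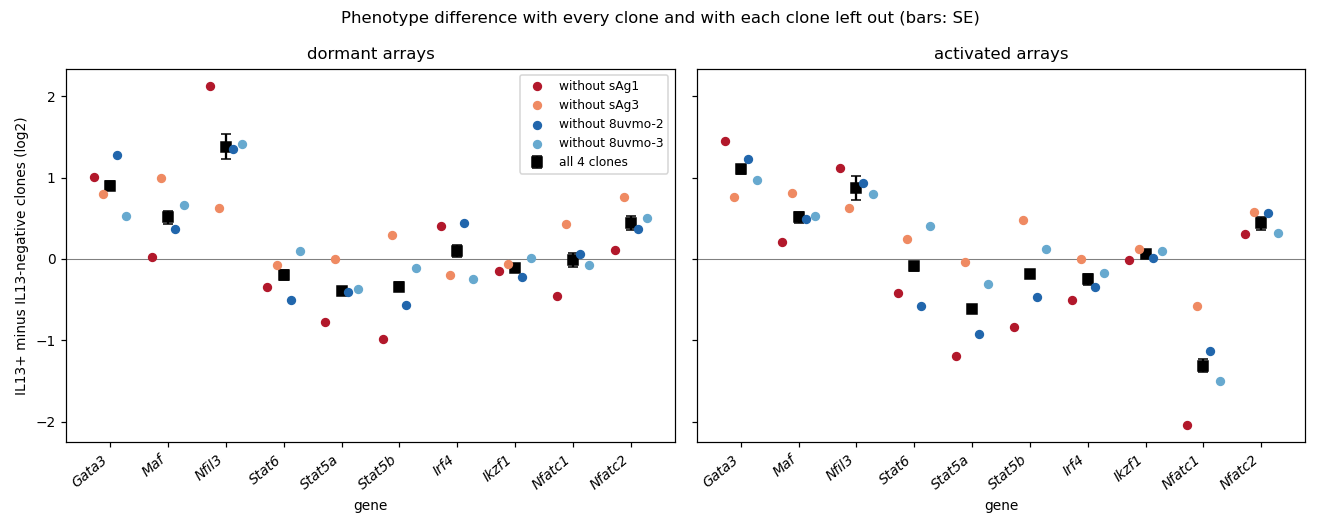
IL13+ minus IL13-negative difference (log2, vertical axis) of each regulator (horizontal axis) in the dormant and the activated state; black squares with SE use all 4 clones, coloured points leave out the named clone. The Gata3, Nfil3, Maf and Nfatc2 differences stayed above 0 in both states whichever clone was left out, although dormant Maf fell to 0.03 without sAg1. Those of Stat6, Stat5b, Irf4 and Ikzf1, and the dormant ones of Nfatc1 and Stat5a, did not keep their sign.

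Gata3 was higher in both IL13+ clones than in every other clone, in both states. Dormant levels were 10.05, 10.06 and 10.01 in sAg1 and 10.22, 10.27 and 10.27 in sAg3. They were 9.60, 9.69, 9.55 and 9.63 in 8uvmo-2, 8.94, 8.80, 8.96 and 8.77 in 8uvmo-3, and 8.91, 8.94, 9.29 and 8.97 in CD8bm1. No array of an IL13+ clone overlapped with an array of the other clones. The dormant difference between IL13+ and IL13-negative clones was 0.90 ± 0.0567 (SE), a fold of 1.87 (adjusted p = 1.89e-15), and 0.53 without 8uvmo-3. In order of level, sAg3 and sAg1 did not differ beyond their spread (adjusted p = 0.0512), nor did CD8bm1 and 8uvmo-3 (adjusted p = 0.0868), while 8uvmo-2 lay between these pairs and differed from both neighbours.

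After activation Gata3 was at 10.33, 10.31, 10.56 and 10.30 in sAg3 and at 9.53, 9.73, 9.75 and 9.75 in sAg1. The other 3 clones lay between 8.75 and 9.13 on all 12 arrays. The IL13+ clones thus stayed apart, with a difference of 1.10 ± 0.0525 (adjusted p = 1.31e-18; 0.76 without sAg3 and 1.45 without sAg1). Gata3 fell in sAg1 (-0.35 ± 0.0802) and in 8uvmo-2 (-0.56 ± 0.0742). In sAg3, 8uvmo-3 and CD8bm1 the differences were 0.12, -0.07 and -0.05 and did not pass on deposited values, and centring moved them to -0.33, -0.50 and -0.50. The response of sAg1 was below that of sAg3 by 0.47 (difference -0.47 ± 0.113, adjusted p = 0.00173). Against CD8bm1 the IL13+ clones were higher by 1.12 when dormant and 1.05 when activated, and the IL13-negative clones by 0.21 when dormant (adjusted p = 0.00625), a comparison that uses the same CD8bm1 arrays. That 0.21 came from 8uvmo-2, with a dormant mean of 9.62 against 9.03 in CD8bm1, while 8uvmo-3 was at 8.87.

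Nfil3 encodes a basic leucine zipper repressor that acts on cytokine genes in T cells. Its dormant levels were 10.57, 10.59 and 10.61 in sAg3, the highest of all groups, and 9.12, 8.98 and 9.18 in sAg1. They were 7.56, 9.08, 8.13 and 8.96 in 8uvmo-2, 8.37, 8.45, 8.67 and 8.47 in 8uvmo-3, and 9.15, 9.33, 10.17 and 8.95 in CD8bm1. Arrays 1 and 3 of dormant 8uvmo-2 lay below arrays 2 and 4, and the ranges of sAg1 and 8uvmo-2 overlapped. The mast cell transcript Cpa3 split the same arrays, at 9.89 and 9.55 on arrays 1 and 3 against 11.28 and 11.59 on arrays 2 and 4. Of 6 mast cell and basophil markers, 2 (Cpa3 and Mcpt8) had a mean above 7 in dormant 8uvmo-2, while the receptor genes Fcer1a (3.92) and Ms4a2 (3.79), which define those cells, were low. Their summed level was 36.9 to 41.8 in dormant 8uvmo-2, 36.5 to 36.7 in sAg3 and 28.6 to 32.8 in the other dormant groups, and their part in the result was not tested. The dormant difference between IL13+ and IL13-negative clones was 1.38 ± 0.156 (2.60-fold, adjusted p = 3.98e-09). It was 2.13 without sAg1, 0.63 without sAg3, 1.09 without arrays 1 and 3 of dormant 8uvmo-2 and 1.67 without arrays 2 and 4.

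The range of the Nfil3 means over the clones was 2.16 when dormant and 1.18 when activated. Activated levels were 9.76, 9.65, 9.61 and 9.74 in sAg3 and 9.09, 9.17, 9.23 and 9.30 in sAg1. The remaining 12 arrays lay between 8.31 and 8.84, below every array of the IL13+ clones. The activated difference between phenotypes was 0.87 ± 0.144 (adjusted p = 7.77e-06), which did not pass with the clone as a random block (adjusted p = 0.123). Nfil3 fell in sAg3 (-0.90 ± 0.22) and in CD8bm1 (-0.65 ± 0.204). In sAg1, 8uvmo-2 and 8uvmo-3 its differences were 0.10, 0.21 and 0.02 on deposited values. Centring moved them to -0.21, -0.21 and -0.41, and no change was called. The mean fall of Nfil3 over the 5 clones was -0.24 ± 0.0941 (limma, adjusted p = 0.0161). That call was lost without sAg3 (-0.08), without CD8bm1 (-0.14) or without arrays 2 and 4 of dormant 8uvmo-2 (-0.13). The difference of response between sAg1 and sAg3 was 1.00 ± 0.311 (adjusted p = 0.015). Dormant CD8bm1 array 3 was the highest of its group for Nfil3 (10.17) and for Gata3 (9.29), and the lowest for Nfatc1 (6.68) and Nfatc2 (8.24).

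Maf, a leucine zipper factor that transactivates Il4 and Il10, was higher in sAg1 than in every other clone. Dormant sAg1 was at 7.87, 7.70 and 7.65, and all other dormant arrays lay between 6.47 and 6.99, close to the median of all values. After activation sAg1 was at 8.13, 8.25, 7.90 and 8.53 and the other clones at 7.23 to 7.71. Neither state showed overlap between sAg1 and the rest. The phenotype difference of 0.51 ± 0.0765 when dormant (adjusted p = 1.06e-06) rested on sAg1: it was 0.03 without sAg1 and 0.99 without sAg3. When activated it was 0.51 ± 0.0709, and 0.21 without sAg1 (adjusted p = 0.0276). In neither state did it pass with the clone as a random block (adjusted p = 0.061 and 0.0793).

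The macrophage marker Lyz2 was at 8.75, 9.08 and 9.94 in dormant sAg1 and at group means of 4.95 to 6.35 in all others. Within activated sAg3, however, array 1 was at 8.40 and the other arrays at 5.36, 5.66 and 5.96. The defining macrophage transcripts Csf1r (6.01), Adgre1 (4.97) and C1qa (5.72) were below 7 in dormant sAg1, and 2 of 10 measured macrophage markers exceeded 7 there. Csf1r and Adgre1 had higher means in dormant sAg1 than in the other dormant groups, which had means of 5.71 to 5.76 and 4.59 to 4.61. The summed level of the 10 markers was 62.0 to 65.7 in dormant sAg1 and 62.5 to 65.7 in dormant 8uvmo-2, where Itgam was at 9.99. It was lower in dormant sAg3 (57.6 to 57.8), 8uvmo-3 (59.7 to 60.5) and CD8bm1 (57.3 to 59.9). In activated sAg1 Lyz2 was at 6.16 ± 0.74 (SD) and the sum at 60.8 to 64.0, against 60.2 to 68.6 in the other activated groups. The part of these transcripts in the Maf levels was not tested. With activation Maf rose by 0.67 ± 0.0463 over the 5 clones, or by 0.26 after centring. It rose on all 3 scalings in sAg3 (0.82), 8uvmo-2 (0.77) and CD8bm1 (0.78), and in sAg1 (0.46) and 8uvmo-3 (0.51) it did not pass after centring. Dim probe sets as a group lay higher on activated arrays, as for the B cell marker Ms4a1 (4.10 to 4.16 dormant, 5.03 to 5.18 activated), and their part in the Maf rise was not tested.

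Stat6 transmits the interleukin 4 and interleukin 13 signal. It was highest in 8uvmo-3, an IL13-negative clone, at 11.07, 11.09, 11.15 and 11.12 when dormant and at 11.29, 10.99, 11.17 and 10.98 when activated. All other arrays lay between 10.03 and 10.96. Dormant levels were 10.61, 10.75 and 10.84 in sAg1 and 10.44, 10.50 and 10.44 in sAg3, so that high Stat6 did not mark the IL13+ clones. The dormant difference of -0.20 ± 0.0633 (adjusted p = 0.00999) became 0.10 without 8uvmo-3, -0.07 without sAg3 and -0.10 without arrays 2 and 4 of dormant 8uvmo-2, none of which passed. The activated difference was -0.09 ± 0.0586 and did not pass (adjusted p = 0.307), with 0.25 without sAg3 (adjusted p = 0.0163) and -0.58 without 8uvmo-2 (adjusted p = 5.63e-09). With activation Stat6 fell in sAg3 (-0.26), 8uvmo-2 (-0.36) and CD8bm1 (-0.36). In sAg1 it was 0.13 and in 8uvmo-3 0.00 on deposited values, neither of which passed, and -0.18 and -0.43 after centring. The response of sAg1 exceeded that of sAg3 by 0.40 ± 0.127 (adjusted p = 0.0185).

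Stat5a and Stat5b encode closely related proteins downstream of the interleukin 2 receptor and lie next to each other in the RefSeq gene table. Whether probes of either gene also read the other was not tested. Both were lowest in sAg3. Dormant Stat5a was at 8.02, 8.02 and 8.10 in sAg3, and all other dormant arrays lay between 8.58 and 8.91. Dormant Stat5b was at 8.46, 8.32 and 8.20 in sAg3, and all other dormant arrays lay between 8.88 and 9.70. The low level was thus a property of sAg3 arrays and not of sAg1, where Stat5b was at 9.55, 9.61 and 9.65. The dormant phenotype differences were -0.39 ± 0.045 for Stat5a and -0.34 ± 0.0529 for Stat5b, and without sAg3 they were 0.00 and 0.30, the latter with an adjusted p of 0.000598 in the opposite direction. For Stat5b the call was also lost without 8uvmo-3 (-0.11, adjusted p = 0.231).

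The paralogues parted with activation. Stat5a rose by 0.91 ± 0.0272 over the 5 clones (1.88-fold, adjusted p = 3.32e-25) and Stat5b did not pass on deposited values. Activated Stat5a was at 10.44, 10.29, 10.16 and 10.31 in 8uvmo-3, at 9.96, 10.03, 9.85 and 9.98 in sAg1, and at 9.59, 9.72, 9.78 and 9.68 in 8uvmo-2. It was at 8.94, 8.86, 9.10 and 8.96 in CD8bm1 and at 8.84, 8.85, 8.73 and 8.81 in sAg3. On the 3 scalings all 10 pairs of clones differed when activated, against 5 of 10 when dormant. The rise was 1.46 in 8uvmo-3, 1.13 in sAg1, 0.89 in 8uvmo-2 and 0.76 in sAg3. In CD8bm1 the difference was 0.33 ± 0.0589 as deposited and -0.13 after centring. The activated phenotype difference of Stat5a was -0.61 ± 0.0417 (1.53-fold lower in the IL13+ clones, adjusted p = 2.07e-14), -0.04 without sAg3 and -1.19 without sAg1. For activated Stat5b it was -0.18 ± 0.049, with 0.48 without sAg3 and 0.12 without 8uvmo-3.

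Irf4, a factor induced by T cell receptor signalling and required for type 2 differentiation, gave the largest mean response. It rose by 1.44 ± 0.0443 over the 5 clones (2.72-fold, adjusted p = 6.8e-25). Dormant levels were 9.28, 9.67 and 9.59 in sAg1, 10.12, 10.23 and 9.98 in sAg3, and 10.11, 10.12, 10.01 and 9.99 in 8uvmo-2. They were 9.35, 9.38, 9.39 and 9.35 in 8uvmo-3 and 10.57, 10.55, 10.09 and 10.26 in CD8bm1. Activated levels were 11.64, 11.84, 11.54 and 11.49 in sAg1, 10.99, 11.22, 11.19 and 11.05 in sAg3, and 11.56, 11.67, 11.53 and 11.39 in 8uvmo-2. In 8uvmo-3 they were 11.60, 11.80, 11.59 and 11.85, and in CD8bm1 10.51, 10.55, 10.79 and 10.72. The clones with the lowest dormant level, 8uvmo-3 and sAg1, were the highest when activated, and CD8bm1 went from the highest mean to the lowest, although the means of 8uvmo-3, sAg1 and 8uvmo-2 did not differ beyond their spread when activated (adjusted p = 0.656 and 0.627 between neighbours). Dormant and activated arrays overlapped only in CD8bm1, where the difference was 0.28 ± 0.0959 on deposited values and -0.18 after centring.

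The Irf4 response was 2.34 in 8uvmo-3, 2.11 in sAg1, 1.48 in 8uvmo-2 and 1.00 in sAg3. The IL13+ clones therefore did not respond alike: sAg1 exceeded sAg3 by 1.11 ± 0.146 (adjusted p = 3.67e-07). The IL13+ minus IL13-negative difference of response was -0.35 ± 0.0998 (adjusted p = 0.00876), but 0.20 without sAg3 and 0.08 without 8uvmo-3, and it did not pass with the clone as a random block (adjusted p = 0.281). The dormant difference between the phenotypes did not pass (0.10 ± 0.0732, adjusted p = 0.315). When activated the difference was -0.25 ± 0.0678 (adjusted p = 0.00329), 0.00 without sAg3 and -0.17 without 8uvmo-3. Against CD8bm1, both phenotypes were lower when dormant (-0.56 for IL13+ and -0.65 for IL13-negative) and higher when activated (0.73 and 0.98), on the same CD8bm1 arrays. Dormant sAg3 on its own did not differ from CD8bm1 (means of 10.11 and 10.37, limma adjusted p = 0.0521).

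Ikzf1 encodes Ikaros, a zinc finger factor of lymphocytes that acts on chromatin at type 2 cytokine genes. It varied least, with a range of 0.76 over the 10 group means. Dormant arrays lay at 11.30 to 11.32 in 8uvmo-3, 11.02 to 11.20 in sAg1, sAg3 and 8uvmo-2, and 10.57 to 10.79 in CD8bm1, which did not overlap with any other clone. After activation CD8bm1 was again the lowest, at 10.49 to 10.64, and the other clones lay between 10.78 and 11.11. Ikzf1 fell by 0.20 with activation over the 5 clones (-0.20 ± 0.024), and by the most in 8uvmo-3 (-0.37). The dormant phenotype difference (-0.11 ± 0.0397, adjusted p = 0.0345) was 0.01 without 8uvmo-3, and the call was lost without dormant array 1 or 3 of sAg1, 1 or 2 of sAg3, 3 of 8uvmo-2 or 1 of 8uvmo-3 (adjusted p = 0.0507 to 0.0858).

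Nfatc1, the NFAT gene that activated T cells induce, had the widest range of the 10 regulators (2.80 over the group means) and the largest difference of response between the phenotypes. Dormant levels were 8.72, 8.79 and 8.94 in sAg1, 7.99, 7.96 and 7.84 in sAg3, and 8.73, 8.25, 8.58 and 8.26 in 8uvmo-2. In 8uvmo-3 they were 8.47, 8.24, 8.27 and 8.28, and in CD8bm1 7.10, 7.28, 6.68 and 7.34. The dormant IL13+ and IL13-negative means were 8.37 and 8.38 (difference -0.01 ± 0.0867, adjusted p = 0.937), with the mean of sAg1 above and that of sAg3 below both IL13-negative clones. Leaving out sAg1 gave -0.45 (adjusted p = 0.00216) and leaving out sAg3 gave 0.43 (adjusted p = 0.00426).

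After activation Nfatc1 was at 9.89, 10.07, 9.62 and 10.00 in 8uvmo-2 and at 9.61, 9.46, 9.31 and 9.73 in 8uvmo-3. It was at 9.06, 9.08, 9.20 and 9.17 in sAg1, at 7.60, 7.61, 7.76 and 7.70 in sAg3, and at 7.72, 7.78, 7.71 and 7.64 in CD8bm1. All arrays of the IL13-negative clones lay above all others. The activated difference was -1.31 ± 0.0803 (2.49-fold lower in the IL13+ clones, adjusted p = 1.37e-15), -0.58 without sAg3 and -2.04 without sAg1, and passed with each clone left out and with the clone as a random block. Nfatc1 rose in 8uvmo-2 (1.44 ± 0.114) and 8uvmo-3 (1.21 ± 0.114). In sAg1 it differed by 0.31 ± 0.123 on deposited values and by -0.01 after centring. In sAg3 the difference was -0.26 ± 0.123 on deposited values (adjusted p = 0.0542), and it passed as a larger fall after centring (-0.71, adjusted p = 4.12e-05) and after quantile normalization (-0.46, adjusted p = 0.00102). In CD8bm1 it was 0.61 ± 0.114, with 0.16 after centring.

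The response of Nfatc1 was thus lower in the IL13+ clones by 1.30 (difference -1.30 ± 0.118, adjusted p = 2.12e-10). This was 1 of 4 regulators whose response differed between the phenotypes on the 3 scalings, where 17.0% of all probe sets did (10.1% higher, 6.95% lower), and the only 1 at 2-fold or more (2.34% of all). The others were Irf4, Stat5a (-0.23 ± 0.0613, adjusted p = 0.00645) and Ikzf1 (0.16 ± 0.0541, adjusted p = 0.0288), whose call was lost without any of 6 single arrays (adjusted p = 0.0507 to 0.0587). With the clone as a random block Nfatc1 alone passed, and without sAg3 Nfatc1 alone passed (-1.02). The IL13+ clones differed between themselves as well, sAg1 exceeding sAg3 by 0.57 ± 0.173 (adjusted p = 0.0127). Of the 10 regulators, 6 differed in response between sAg1 and sAg3 on the 3 scalings (Irf4, Nfil3, Nfatc1, Gata3, Stat6, Stat5a), where 19.1% of all probe sets did.

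Nfatc2, the NFAT gene expressed in resting T cells, was highest in sAg1 and lowest in CD8bm1. Dormant levels were 10.22, 10.04 and 10.24 in sAg1, 9.53, 9.46 and 9.56 in sAg3, and 9.25, 8.74, 8.24 and 8.61 in CD8bm1. The IL13-negative arrays lay between 9.19 and 9.58. Only sAg1 stood clear of all other clones, and the neighbours sAg3 and 8uvmo-3 did not differ beyond their spread (adjusted p = 0.804). The dormant phenotype difference was 0.44 ± 0.0874 (adjusted p = 0.000101), 0.11 without sAg1 and 0.76 without sAg3. Activated arrays ran from 9.63 to 9.96 in sAg1, 9.36 to 9.70 in sAg3, 9.26 to 9.45 (8uvmo-2), 9.03 to 9.20 (8uvmo-3) and 8.88 to 9.01 (CD8bm1), and no neighbours in that order differed beyond their spread. The activated phenotype difference was 0.44 ± 0.081 (adjusted p = 3.4e-05). Nfatc2 fell in sAg1 (-0.35) and 8uvmo-3 (-0.35), and its difference in sAg3, 8uvmo-2 and CD8bm1 was 0.04, 0.03 and 0.26 on deposited values, each below 0 after centring (-0.41, -0.39 and -0.20).

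**Figure D4:**
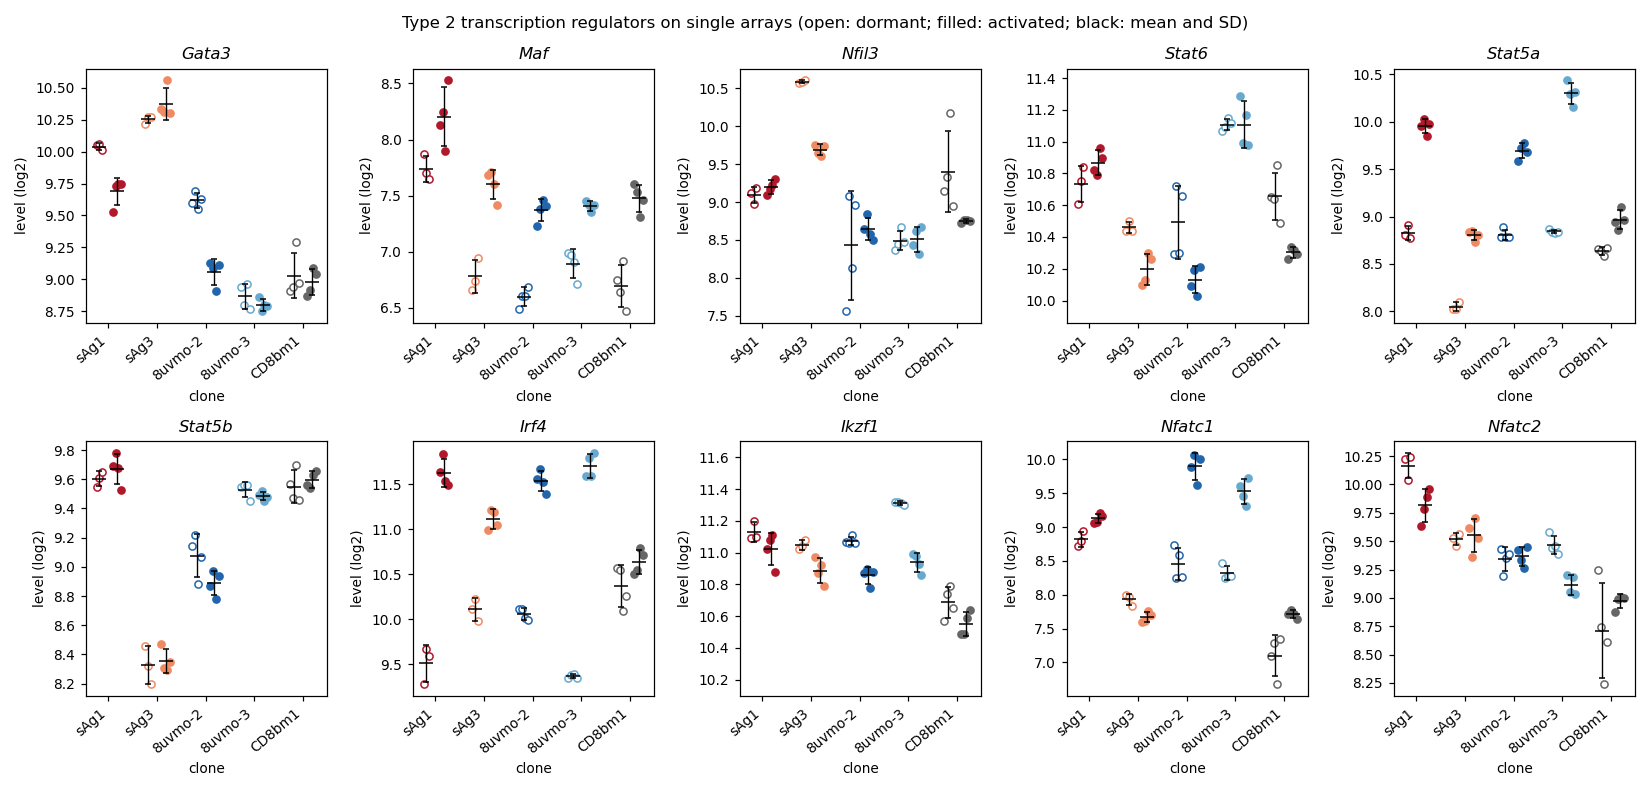
Level (log2, vertical axis, a separate scale for each gene) of the 10 regulators on every array of the 5 clones (horizontal axis); open points are dormant, filled points activated arrays, and black marks are group means with SD. Gata3 was at 9.53 or more on every IL13+ array, as it was on the 4 dormant 8uvmo-2 arrays (9.55 to 9.69), activated Nfatc1 was at 9.31 or more in 8uvmo-2 and 8uvmo-3 and at 9.20 or less elsewhere, and Stat5b was at most 8.47 in sAg3.

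Compared with the alloreactive clone CD8bm1, 10 of 10 regulators differed from the activated IL13+ clones on the 3 scalings, 9 higher in the IL13+ clones and Stat5b lower (-0.59 ± 0.06), where 27.3% of all probe sets differed, 13.7% in each direction. Not all of these held in both IL13+ clones. In sAg3 the differences from CD8bm1 were 0.13 for Maf, -0.11 for Stat6, -0.05 for Nfatc1 and -0.16 for Stat5a, of which Stat5a passed as lower (adjusted p = 0.0396). In sAg1 the same genes were higher, by 0.73, 0.56, 1.41 and 0.99. Nfil3 passed in sAg3 (0.94) and not in sAg1 (0.45, adjusted p = 0.0993), and Stat5b was at -1.24 in sAg3 and 0.07 in sAg1. For the activated IL13-negative clones, 7 of 10 did against 31.1% of all probe sets, with Nfatc1 at 2.00 ± 0.0984 and Stat5a at 1.03 ± 0.051 the largest. The dormant comparisons gave 8 of 10 each, against 34.8% and 37.9% of all probe sets. These comparisons share the CD8bm1 arrays, and CD8bm1 is 1 clone.

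Gene lists around the regulators are described by counts on the 3 scalings and by medians; over all named probe sets the median difference was 0.35 for activation, 0.03 between dormant phenotypes and 0.02 between activated phenotypes. Of all probe sets, 34.2% rose and 21.3% fell with activation, 13.5% were higher and 17.1% lower in dormant IL13+ clones, and 14.2% were higher and 14.8% lower in activated ones. Among type 2 receptors and kinases, 6 of 14 measured genes rose and 2 fell with activation (median 0.41, and 0.00 after centring). Il21r, a receptor of the common gamma chain family, rose by 0.90 as a mean over the clones, although its mean in sAg3 went from 9.54 to 8.77. Il7r, the receptor of interleukin 7, fell by 0.96 (difference -0.96), although its mean in CD8bm1 went from 10.64 to 11.28. Dormant IL13+ clones had 5 of these genes higher and 1 lower, the former including Il4ra, the receptor chain upstream of STAT6 (0.80 ± 0.0752), and Il2ra, the high-affinity interleukin 2 receptor chain (0.69 ± 0.0637). When activated 5 were higher and 2 lower, with Il7r at 1.01 and Il21r at -1.25. The IL13+ clones were split for both: Il21r was at 8.77 in sAg3 but at 11.84 in sAg1, above 8uvmo-2 (11.62) and 8uvmo-3 (11.47), and Il7r was at 11.67 in sAg3 and at 10.45 in sAg1, between 8uvmo-3 (9.01) and 8uvmo-2 (11.08). Of the 11 measured type 2 cytokine targets, 9 rose and none fell with activation (median 1.58), among them Il3 (4.18 ± 0.0843), Il10 (2.78 ± 0.0897) and Csf2 (2.20 ± 0.127). In the IL13+ clones 5 were higher and 1 lower in each state (medians 0.79 dormant and 0.05 activated), and the chemokine receptor gene Ccr8 was higher by 3.15 when dormant and 3.29 when activated.

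Among 22 measured partner factors, 10 rose and 3 fell with activation (median 0.44, and 0.03 after centring), against 34.2% and 21.3% of all probe sets, with Egr1 (3.21 ± 0.0514) and Rel (1.64 ± 0.0419), both induced by receptor signalling, among the largest rises. Activated IL13+ clones had 9 higher and 5 lower, and Egr1 (-1.65 ± 0.0787) and Rel (-1.38 ± 0.0642) were lower. For Rel the difference lay mainly in sAg3, at 9.48 against 11.57 in sAg1, 11.71 in 8uvmo-2 and 12.10 in 8uvmo-3. In the dormant state 12 partner factors were higher and 6 lower (median 0.25). The dormant difference was 1.38 ± 0.0584 for Pparg, a nuclear receptor linked to type 2 T cells, and -2.09 ± 0.0974 for Rora. Both came from sAg3: Pparg was at 10.37 in sAg3 and at 7.98 in sAg1, between 8uvmo-2 (7.44) and 8uvmo-3 (8.16), and Rora was at 6.47 in sAg3 and at 11.12 in sAg1, between 8uvmo-2 (10.56) and 8uvmo-3 (11.23). Ets1 (-1.27 ± 0.072) was lower in both IL13+ clones, with means of 9.95 (sAg1) and 8.33 (sAg3) below those of 8uvmo-2 (10.40) and 8uvmo-3 (10.43). The response to activation was higher in the IL13+ clones for 2 partner factors and lower for 10, against 10.1% and 6.95% of all probe sets. The largest were Rora (1.86) and Rel (-1.07). Both include a mean at which sAg3 stood apart from sAg1 and the IL13-negative clones, dormant Rora (6.47) and activated Rel (9.48).

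Of 22 measured opposing factors and inhibitors, 6 rose and 9 fell with activation (median 0.19), including Stat4, the interleukin 12 signal transducer (-1.11 ± 0.0555), and Zfpm1, which encodes the GATA cofactor FOG1 (1.09 ± 0.0481). In the dormant IL13+ clones 6 were higher and 9 lower (median -0.18). The difference was 2.00 ± 0.125 for Eomes, a T-box factor of CD8 T cells, and -0.89 ± 0.0992 for the phosphatase gene Ptpn6. Eomes was high in sAg3 alone (9.24), and sAg1 (5.43) lay between 8uvmo-2 (5.02) and 8uvmo-3 (5.64). Ptpn6 was low in sAg3 (7.80) but higher in sAg1 (10.36) than in 8uvmo-2 (10.14) and 8uvmo-3 (9.79). When activated, 2 were higher and 5 lower, with Ptpn6 at -1.58 (7.90 in sAg3 and 10.30 in sAg1, against 10.97 and 10.39). Tbx21, the T-box factor of interferon gamma producing cells, was at -0.52 ± 0.0527, with 10.14 in sAg3 and 11.12 in sAg1, the latter between 8uvmo-2 (10.97) and 8uvmo-3 (11.34). The other members of the regulators' families moved both ways: of 29 measured, 12 rose and 11 fell with activation (median 0.31), with Irf8 the largest rise (3.02 ± 0.0646) and Irf1 the largest fall (-1.35 ± 0.0754). Dormant IL13+ clones had 8 higher and 4 lower (median 0.01), including Ikzf2 (-1.93 ± 0.097) and Ikzf3 (-1.67 ± 0.0826), relatives of Ikaros, and Ikzf4 (1.10 ± 0.091). When activated 4 were higher and 6 lower, and Ikzf2 (-1.40) and Ikzf3 (-1.19) were again among the lower ones, Ikzf3 through sAg3 (8.45), since sAg1 (10.35) lay between 8uvmo-2 (10.12) and 8uvmo-3 (11.05).

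Genes that regulate NFAT proteins were measured for 19 of 20 listed. With activation 6 rose and 9 fell, and the calcineurin catalytic subunit genes Ppp3cc (-1.31 ± 0.0548) and Ppp3ca (-0.98 ± 0.0368) were among those that fell. Dormant IL13+ clones had 3 higher and 6 lower, and Itpr3, a calcium channel of the endoplasmic reticulum, differed by 0.80 ± 0.139, with 11.45 in sAg3 and 9.59 in sAg1, the latter between 8uvmo-2 (10.14) and 8uvmo-3 (9.30). When activated 4 were higher and 5 lower. Ppp3cc (0.44 ± 0.084) was higher in both IL13+ clones, and Ppp3ca (0.59 ± 0.0563) was at 10.50 in sAg3 and at 9.75 in sAg1, between 8uvmo-3 (9.23) and 8uvmo-2 (9.82). Their response to activation differed in the same direction (0.69 ± 0.0829 for Ppp3ca and 0.48 ± 0.124 for Ppp3cc). The median of the 19 genes was -0.05 for activation, 0.35 over all probe sets, and 0.00 between activated phenotypes.

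The genes most like each regulator were taken by Pearson correlation over the 10 group means, which share clones, states and the shift of activated arrays, and are given as a description. For Gata3 they were Cst3 (0.952), Rhobtb2 (0.947) and Cd99l2 (0.946). For Nfatc1 they were Coro2a (0.950), Nln (0.944) and Hivep3 (0.944), and these 3 were also the nearest over the 38 single arrays (0.937, 0.925 and 0.934). For Irf4 they were Psmd13 (0.973), Ube2l3 (0.966) and the dim Olfr1020 (0.963), none of which was among the nearest over single arrays. Stat5a was nearest to Stip1 (0.974), Nup188 (0.969) and Sf3a1 (0.968), and Stat5b to Acap3 (0.961), Mterf2 (0.949) and Asph (0.941). Maf was nearest to Adcy6 (0.989), Rasgef1b (0.984) and Ranbp17 (0.975), Nfil3 to Tmed8 (0.939), Kif3a (0.937) and S100a1 (0.929), and Nfatc2 to Sugp1 (0.962), Zfp84 (0.952) and Impact (0.950). Stat6 and Ikzf1 ranged over less than 1 log2 unit and were not compared in this way.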

How the data were processed

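RNA from 38 samples was hybridised to Affymetrix mouse gene arrays from 100 ng of total RNA, per the labels' protocols. The authors deposited log2 expression values, and the submitters' processing notes name RMA and Partek without versions; the array annotation's genome build is not given in the sources used here. The table held 35556 probe sets, of which 23410 had a gene name (21789 with 1 symbol). Each of the 10 regulators had 1 probe set. Groups were clone and state, and limma 3.58.1 in R 4.3.3 fitted 1 mean for each of 10 groups with a mean trend. P-values were adjusted by Benjamini-Hochberg over all named probe sets, with 0.05 as the threshold. Quantile normalization and centring on array medians were applied as alternatives. Script behaviour was checked on simulated data. The number of arrays limits the precision.

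The regulators and gene lists were chosen with earlier results of these data known. Outside the 10 regulators and Il4, Il5 and Il13, up to 4 called genes per list with the largest differences were eligible to be named, markers of other cell types were read as levels, and the 3 best correlated genes were named for each regulator that ranged over at least 1 log2 unit. Comparisons were made within 1 probe set only. Upstream sequences are from RefSeq (GRCm38.p6).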

Additional observations from a re-analysis of the deposited data

Results flagged for a closer look

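Of 80 groups of 4 arrays examined over the 10 regulators, 6 held an array whose gap to its nearest neighbour exceeded Dixon's critical value, and chance gives about 1 in 20. For Gata3 these were dormant CD8bm1 array 3 at 9.29 (others 8.91 to 8.97), activated sAg1 array 1 at 9.53 (others 9.73 to 9.75) and activated sAg3 array 3 at 10.56 (others 10.30 to 10.33). Dormant 8uvmo-2 array 2 was at 8.89 for Stat5a (others 8.78), dormant 8uvmo-3 array 4 at 9.45 for Stat5b (others 9.55 to 9.56), and activated CD8bm1 array 1 at 8.88 for Nfatc2 (others 8.99 to 9.01).

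The response to activation differed between the IL13+ and the IL13-negative clones by -1.30 for Nfatc1, -0.35 for Irf4, -0.23 for Stat5a and 0.16 for Ikzf1 (limma, adjusted p = 2.12e-10, 0.00876, 0.00645 and 0.0288). Between sAg1 and sAg3 the response differed by 1.11 for Irf4, 1.00 for Nfil3, 0.57 for Nfatc1, 0.40 for Stat6, 0.37 for Stat5a and -0.47 for Gata3 (adjusted p = 3.67e-07, 0.015, 0.0127, 0.0185, 0.00207 and 0.00173).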

How the results depend on the processing

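Over 40 results of the 10 regulators (mean activation, both phenotype comparisons and the difference of response), 1540 alternatives were run. Of these, 1456 kept the side of the threshold, 43 lost the call and 27 gained one. A further 14 changed sign with a call in the main result, the alternative or both. Sign changes without a call in either are among the 1456. Activated Ikzf1 between phenotypes, for example, was 0.06 and went as low as -0.01. The counts of regulators passing were 8 for activation, 8 and 8 between dormant and activated phenotypes and 4 for the difference of response, and the same counts held on 3 scalings together, an alternative chosen after seeing the data. Leaving out single arrays gave 8 to 9, 7 to 8, 8 and 3 to 5. With the clone as a random block (correlation 0.378) the last 3 counts were 2, 3 and 1. Array weights gave 7 for the difference of response, and leaving out sAg3 gave 1. Shares of all probe sets are not given for the counts under the block, the weights or fewer arrays. With a 2-fold minimum the 4 counts were 1, 1, 2 and 1.

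Without sAg3 the dormant phenotype differences of Stat5a, Stat5b and Nfatc1 were 0.00, 0.30 and 0.43, the activated ones of Stat6, Stat5b and Irf4 were 0.25, 0.48 and 0.00, and the difference of response of Irf4 was 0.20. Without 8uvmo-3 the dormant differences of Stat6, Irf4 and Ikzf1 were 0.10, -0.25 and 0.01, the activated ones of Stat6 and Stat5b were 0.40 and 0.12, and the differences of response of Stat5a and Irf4 were 0.06 and 0.08. These alternatives hold fewer clones, and the cause was not tested.

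Centring on array medians turned the single-clone activation differences of Stat6, Stat5b and Nfatc1 in sAg1 (-0.18, -0.25 and -0.01), of Gata3, Stat5b and Nfatc2 in sAg3 (-0.33, -0.42 and -0.41), of Nfatc2 in 8uvmo-2 (-0.39), of Stat6 in 8uvmo-3 (-0.43), and of Stat5a, Stat5b, Irf4 and Nfatc2 in CD8bm1 (-0.13, -0.41, -0.18 and -0.20). The Nfil3 differences in sAg1, 8uvmo-2 and 8uvmo-3 turned as well (-0.21, -0.21 and -0.41). Same-numbered dormant and activated arrays of a clone were not treated as paired: their deviations correlated at -0.236 to 0.268 over 18 pairs, 7 above 0.1, although in 8uvmo-2 all 4 pairs were above it (0.113 to 0.237). A replicate block (correlation 0.0698) changed no call and left the counts at 8, 8, 8 and 4. Each phenotype rests on 2 clones, and low levels such as those of Maf and Il4 lie near the median of all probe sets.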
